A study of Mus musculus with 6 samples.

Results

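Gdf15 (growth differentiation factor 15) is 1 of the 54532 genes in the data, and it was chosen by its measured TPM values across the 3 groups of libraries. Its levels and differences are therefore given as a description without a test. The libraries are RNA-seq of primary bone-marrow-derived macrophages (BMDMs), which are macrophages grown in culture from the marrow of wildtype C57BL/6 mice with medium conditioned by L929 cells. Of the 6 libraries, 2 came from untreated cells, 2 from cells given LPS (100 ng/ml) for 2 h, and 2 from cells that had metformin (5 mM) for 6 h before that LPS stimulation (Met + LPS). LPS, a glycolipid of Gram-negative bacteria, is sensed by the receptor TLR4, and metformin is a drug for type 2 diabetes that acts on mitochondria and on energy sensing. No group had metformin without LPS, so that a response to metformin alone and a response to metformin before LPS cannot be told apart. The sources do not say whether libraries of a group came from different mice, and p-values measure the spread between these libraries, which may be technical.

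Gdf15 encodes a secreted cytokine of the TGF-beta superfamily that is made by many tissues under stress and rises in the blood in mitochondrial disease and in people taking metformin. The mature protein is released from its precursor by proprotein convertases such as furin, and its receptor GFRAL, which signals through RET, is made by neurons of the hindbrain, where it lowers food intake. Transcription of Gdf15 is known to be raised by ATF4 and CHOP, factors of the integrated stress response that follow phosphorylation of eIF2alpha, and also by p53, EGR1 and the lysosomal factors TFEB and TFE3. The lists of genes described here follow this biology.

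The gene (ENSMUSG00000038508) lies on the minus strand of chromosome 8 in GRCm38, from 70629393 to 70632456. It is protein-coding, its exons cover 1852 bases in 2 annotated transcripts of 1545 and 1380 bases, and no other annotated gene overlaps it. All of its 1820 exonic 31-base words were its own (100%), so that no annotated transcript of another gene held any of them exactly. Near matches and unannotated sequence were not searched. RefSeq gives 2 start sites for it. The 300 bases around each, from 250 bases before the start to 50 after it, are shown 5′ to 3′ on the strand of the gene because they are the nearest regulatory sequence to the change described here. The capitals mark the only match among the 11 motifs searched. The upstream window is chr8:70632407-70632706 and the downstream window chr8:70632046-70632345, both in GRCm38.p6.

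Gdf15 upstream start: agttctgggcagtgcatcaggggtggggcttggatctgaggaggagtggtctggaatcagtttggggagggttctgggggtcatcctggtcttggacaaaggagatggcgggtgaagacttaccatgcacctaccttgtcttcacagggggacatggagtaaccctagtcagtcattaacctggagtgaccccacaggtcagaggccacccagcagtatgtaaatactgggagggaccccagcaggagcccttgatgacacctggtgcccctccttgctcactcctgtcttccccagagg
Gdf15 downstream start: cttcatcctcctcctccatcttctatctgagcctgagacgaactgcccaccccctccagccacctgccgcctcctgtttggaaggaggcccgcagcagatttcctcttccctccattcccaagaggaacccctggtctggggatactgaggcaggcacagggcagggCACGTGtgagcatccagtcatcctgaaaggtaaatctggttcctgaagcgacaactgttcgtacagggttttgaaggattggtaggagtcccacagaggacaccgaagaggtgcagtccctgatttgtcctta

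The capitals in the downstream window are an E-box (CACGTG), the core bound by TFEB, TFE3, MYC and other basic helix-loop-helix factors, at 83 bases before that start. An E-box was present in 7.15% of the 32841 windows of the RefSeq set. Neither window held the core of the C/EBP-ATF response element (CARE, TGATGNAA), through which ATF4 binds many of its targets and which was found in 3.97% of all windows, nor its form with the third base free (TGNTGNAA, 14.8% of windows, which includes every CARE core). The other motifs searched on both strands without a match were the CRE (TGACGTCA, 1.79% of windows), C/EBP (TTGCNNAA, 10.8%), AP-1 (TGANTCA, 7.81%), GC box (GGGCGG, 35.7%), EGR (GCGTGGG, 5.04%) and TATA box (TATAAA, 13.6%) motifs, the NF-kB site (8.46%) and the p53 half-site (8.36%). The absence of a match says only that these letters are not in these windows.

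The gene was present in untreated macrophages at a moderate level. Gdf15 was at 36.6 and 41.4 TPM in the untreated libraries, where TPM are reads per base of exon scaled to a fixed library total. It was at 32.8 and 36.5 TPM in the LPS libraries. It was at 853 and 770 TPM in the Met + LPS libraries. Both Met + LPS libraries thus stood far above the other 4, while the LPS and untreated libraries lay side by side and were separated by less than the gap within either group. The group means were 39.0 ± 3.35 (SD, n = 2), 34.7 ± 2.67 (SD, n = 2) and 811 ± 58.7 (SD, n = 2) TPM. The mean with Met + LPS was 23.4 times that with LPS, and 20.8 times that of untreated cells. Between any pair of libraries the ratio of Met + LPS to LPS ranged from 21.1 to 26.0.

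**Figure D1:**
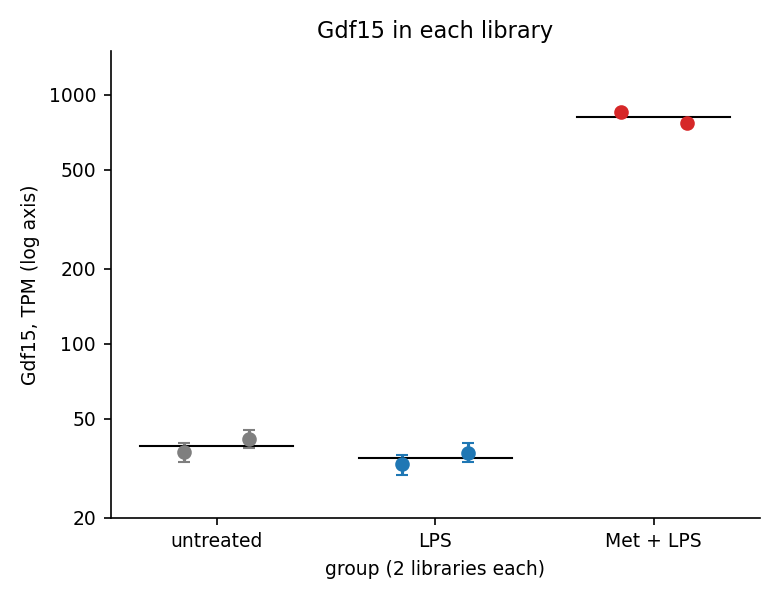
Gdf15 in TPM on a log axis in each of the 6 libraries, by group. Points are libraries, bars are exact 95% Poisson intervals of their reads, and black lines are group means; the Met + LPS libraries, at 853 and 770 TPM, stand above the other 4, which lie between 32.8 and 41.4 TPM.

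The depth behind these values was sufficient in every library. Whole reads could be recovered from the TPM values, and Gdf15 had 516 and 549 reads in untreated cells, 462 and 494 with LPS, and 11941 and 12619 with Met + LPS, out of 25457016 to 30762754 reads on genes per library. Counting error alone was 4.27% to 4.65% in the untreated and LPS libraries and at most 0.915% with Met + LPS. The libraries of a group differed more than that, with coefficients of variation of 8.59% in untreated cells, 7.71% with LPS and 7.24% with Met + LPS. By level, Gdf15 ranked 4012 and 3649 in untreated cells, 3741 and 3472 with LPS, and 141 and 162 with Met + LPS, among 17912 to 18937 genes listed above 0 in a library. It took 0.0853% and 0.0770% of all TPM in the Met + LPS libraries.

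On the scale of log2(TPM + 1), the difference of Gdf15 between Met + LPS and LPS was 4.51, the highest of the 12755 genes tested, which reached 1 TPM in at least 2 libraries. Gadd45a, a growth-arrest gene of the p53 and ATF4 responses, followed at 3.82. Against untreated cells the difference was 4.34, which placed Gdf15 at position 86 in a ranking led by genes of the LPS response such as Acod1. The difference of Gdf15 between LPS and untreated cells was -0.17, beside a median of -0.48 over all tested genes in that comparison. When the libraries were rescaled so that this median came to 0.00, Gdf15 was at 28.5 and 32.0 in untreated and 36.5 and 41.0 rescaled TPM in LPS libraries, and the difference became 0.35. The direction of the small difference with LPS alone thus depended on the scaling, whereas the difference between Met + LPS and LPS was 4.53 after rescaling.

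The labelled cell type was checked with marker genes. All 8 macrophage markers were present, with summed levels of 44621 to 46599 TPM in untreated, 37412 to 37903 in LPS and 30877 to 30948 in Met + LPS libraries. The sums were not rescaled, and rescaling divided the libraries by 1.29 (untreated), 0.89 to 0.90 (LPS) and 0.89 (Met + LPS). The order of the untreated and LPS sums therefore depends on the scaling. Lyz2 made up most of each sum. In TPM, Adgre1 and Cd14 were higher with LPS than in untreated cells, whereas Cd68, Csf1r, Itgam, Lyz2 and Mertk were lower, and the libraries of Fcgr1 overlapped. Fcgr1 was at 153 and 177 TPM with LPS and 74.9 and 73.8 TPM with Met + LPS. This log2 fold change of -1.14 ± 0.07 (SE) was called (limma, adjusted p = 5.15e-05). The other macrophage markers were not called with Met + LPS, with log2 fold changes from -0.61 (Mertk) to 0.003 (Cd68). The part of the decrease of the sums from LPS to Met + LPS in the results was not tested. The summed levels of the 6 neutrophil markers were 22.1 to 24.6 TPM in untreated, 11.0 to 16.7 in LPS and 24.7 to 24.8 in Met + LPS libraries, which moved in the same direction as Gdf15 between LPS and Met + LPS. The 4 tested markers of this list had log2 fold changes of 0.43 (Ngp) to 0.83 (Elane) with Met + LPS and missed the adjusted p cut-off of 0.01, and their part in the results was not tested. Ly6g was listed at 0 in all libraries but Met + LPS replicate 1, where it was at 0.140 TPM. The summed levels of the T cell, B cell, fibroblast, erythroid and dendritic cell lists were at most 6.92 TPM in any library. In bulk RNA, fewer cells of a type and less RNA per cell cannot be told apart.

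Genes were compared between groups with limma on log2(TPM + 1), with Benjamini-Hochberg adjustment over the 12755 tested genes. A gene was called at an adjusted p-value under 0.01 and a log2 fold change of at least 0.7 in either direction for Met + LPS vs. LPS, or at least 2 for LPS vs. untreated. By this rule 4.19% of tested genes were called higher and 4.09% lower with Met + LPS than with LPS. With LPS, 3.72% were called higher and 2.37% lower than in untreated cells, which is 474 against 302 genes, and 663 against 129 genes once the libraries were rescaled to a median of 0.00. The lists of genes below are read against these shares. At an unadjusted p under 0.05, 24.9% of tested genes were higher and 29.98% lower with Met + LPS than with LPS, and 18.0% were higher and 66.8% lower with LPS than in untreated cells. Both comparisons use the LPS libraries, so that they are not independent of each other.

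Of the machinery that handles GDF15, the receptor was not seen. Gfral, the receptor, was listed at 0 in all 6 libraries, and Ret, its signalling partner, had 1 read in each Met + LPS library and none elsewhere. The related receptors Gfra1, Gfra2, Gfra3 and Gfra4 stayed under 0.5 TPM in every library. Furin, a convertase that can cleave the precursor, was at 62.8 and 63.7 TPM in untreated, 96.8 and 108 in LPS and 165 and 146 in Met + LPS libraries. These 3 pairs did not overlap, but the log2 fold change of 0.60 ± 0.07 (SE) with Met + LPS was under the cut-off (limma, adjusted p = 0.000897), as was that of 0.68 ± 0.07 with LPS. Pcsk7, a further convertase, was at 36.4 and 36.5 TPM with LPS and 22.8 and 24.1 TPM with Met + LPS, a log2 fold change of -0.62 ± 0.04 (SE) that was also under the cut-off. Pcsk5 was listed at 0 throughout, and Pcsk6 had under 0.03 TPM in any library. Of the 10 genes of this list, 2 were tested and 0 were called in either comparison by limma, as by voom (a limma test on the recovered reads), although both had an unadjusted p under 0.05 in each.

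A list of 15 transcription factors holds those known to act on Gdf15 or on stress and LPS responses. Of these, 5 rose with Met + LPS and 0 fell by limma, against 4.19% and 4.09% of all tested genes. At an unadjusted p under 0.05, 3 were lower, beside 29.98% of all tested genes, and 0 were called lower by voom. Their median log2 fold change was 0.32, beside -0.03 over all tested genes. Atf4, the central factor of the integrated stress response, was at 198 and 194 TPM with LPS and 331 and 334 TPM with Met + LPS. This rise of 0.75 ± 0.03 (SE) on the log2 scale was small and just above the cut-off (limma, adjusted p = 1.46e-05). The activity of ATF4 is mainly set by translation of its mRNA, which these data do not measure. Ddit3, which encodes CHOP, was at 46.9 and 45.0 TPM in untreated, 13.2 and 13.4 in LPS and 49.96 and 51.8 in Met + LPS libraries. The log2 fold change of Ddit3 between Met + LPS and LPS was 1.86 ± 0.04 (SE; limma, adjusted p = 4.43e-06). The Met + LPS libraries lay above the untreated, by little in TPM and by more after rescaling, with rescaled means of 57.4 and 35.6. Reads of Ddit3 are uncertain in part, since 10.9% of its exonic bases lie in other annotated genes.

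Egr1, an immediate-early factor, followed Gdf15 in shape, with 4.34 and 3.92 TPM in untreated, 4.07 and 4.95 in LPS and 26.9 and 20.3 in Met + LPS libraries. Its log2 fold change with Met + LPS was 2.15 ± 0.14 (SE; limma, adjusted p = 7.59e-05). Klf4, a Kruppel-like factor, rose by 1.66 ± 0.09 and Tfeb by 1.09 ± 0.10 on the log2 scale (SE). For Tfeb this was a partial return, from 53.1 and 52.6 TPM in untreated to 4.70 and 4.13 in LPS and 11.6 and 9.57 in Met + LPS libraries, and its fall with LPS was called (log2 fold change -3.31 ± 0.10, SE; limma, adjusted p = 3.41e-07). Trp53, which encodes p53, did not pass the cut-off in either comparison and was at 51.3 and 53.1, 79.1 and 80.0, and 60.6 and 64.3 TPM in the 3 groups. Atf3, Cebpb, Nfe2l2 (NRF2), Sp1, Tfe3, Hif1a, Rela and Jun were also not called with Met + LPS, with log2 fold changes from -0.12 (Tfe3) to 0.62 (Jun). Nfkb1, an NF-kB subunit, was the only factor of the list called higher with LPS, at 2.55 ± 0.04 (SE) against 3.72% of all tested genes, and was not called with Met + LPS (-0.33).

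The kinases and phosphatase subunits that set eIF2alpha phosphorylation moved unevenly at the level of mRNA. Of 9 genes, 2 rose and 0 fell with Met + LPS by limma, beside 4.19% and 4.09% of all tested genes. Their median log2 fold change was -0.03. At an unadjusted p under 0.05, 4 were lower, beside 29.98% of all tested genes, and 0 were called lower by voom. Eif2ak4, which encodes the amino-acid sensor GCN2, was at 23.95 and 24.4 TPM in untreated, 9.30 and 7.99 in LPS and 16.9 and 18.0 in Met + LPS libraries. Its rise was 0.94 ± 0.08 (SE; limma, adjusted p = 0.000165), while the order of the Met + LPS and untreated libraries depended on the scaling, since after rescaling they were at 19.1 and 20.3 and at 18.6 and 18.9. Ppp1r15a (GADD34), which recruits the phosphatase that reverses the response and is itself a target of CHOP, was at 33.5 and 34.4, 187 and 199, and 354 and 340 TPM in the 3 groups. It was called higher in both comparisons, by 2.47 ± 0.04 with LPS and a further 0.84 ± 0.04 with Met + LPS (SE; limma, adjusted p = 3.51e-08 and 2.91e-05). Dele1, which relays mitochondrial stress to the kinase HRI, had 36.9 and 39.5 TPM in untreated cells. Its level was 12.8 TPM in both LPS libraries, then 21.1 and 21.2 TPM in those with Met + LPS. The rise with Met + LPS, 0.68 ± 0.05 (SE) on the log2 scale, was just under the cut-off. For Dele1 this was a partial return. Its Met + LPS libraries stayed below the untreated, also after rescaling, with rescaled means of 23.8 and 29.6. Eif2ak1 (HRI itself), Eif2ak2 (PKR), Eif2ak3 (PERK), Eif2s1 (eIF2alpha), Oma1 (the protease upstream of DELE1) and Ppp1r15b (CReP) were not called with Met + LPS, with log2 fold changes from -0.63 (Eif2ak2) to 0.13 (Oma1). With LPS, Eif2ak3 fell by 2.38 ± 0.08 on the log2 scale (SE) and was at 2.72 to 3.42 TPM in the LPS and Met + LPS libraries.

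Known targets of ATF4 or CHOP were the list in which most genes moved the same way as Gdf15. Of 26 genes, 20 were tested, and 17 rose and 1 fell with Met + LPS against LPS, beside 4.19% and 4.09% of all tested genes, with a median log2 fold change of 1.65. Trib3, a pseudokinase induced by CHOP, was at 18.6 and 17.1 TPM in untreated, 4.88 and 4.26 in LPS and 58.9 and 62.1 in Met + LPS libraries. Its log2 fold change with Met + LPS was 3.47 ± 0.07 (SE; limma, adjusted p = 4.41e-06). Asns, asparagine synthetase, was at 52.3 and 50.4, 56.9 and 53.6, and 303 and 314 TPM in the 3 groups. After rescaling its LPS libraries were at 63.4 and 60.0 and its untreated libraries at 40.6 and 39.0, so that the closeness of these groups in TPM depended on the scaling, as for Gdf15. Its log2 fold change with Met + LPS was 2.46 ± 0.04 (SE; limma, adjusted p = 3.31e-06). Slc7a11, the cystine transporter, rose in both steps, from 1.58 and 1.46 to 10.7 and 10.2 and then 60.7 and 61.6 TPM. Sesn2, a stress-induced inhibitor of mTORC1, was at 25.2 and 26.6, 4.50 and 4.34, and 26.0 and 20.7 TPM, and was called lower with LPS and higher with Met + LPS.

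The other targets called higher differ in function. Phgdh and Mthfd2, enzymes of serine and folate metabolism, rose with Met + LPS by 2.00 ± 0.05 and 1.85 ± 0.05 on the log2 scale (SE). Psph, Shmt2, Slc7a5, Slc7a1, Slc3a2, Atf5, Cebpg, Pck2, Aldh18a1, Chac1 and Vegfa rose by 0.88 (Slc3a2) to 1.84 (Pck2). Ddit4, an inhibitor of mTORC1, was the only target called lower, from 3.52 and 4.37 TPM with LPS to 1.66 and 1.74 TPM with Met + LPS, and that call was lost when LPS replicate 2 or either Met + LPS library was left out (log2 fold changes -0.74, -0.85 and -0.89). Psat1 and Nupr1 were not called with Met + LPS, at -0.03 and 0.09. Nupr1 was instead called higher with LPS alone, from 6.91 and 6.496 to 127 and 118 TPM. Vldlr, Fgf21, Adm2, Cth, Pycr1 and Stc2 were below the filter on low values; Fgf21, a hormone that is often raised together with GDF15, was listed at 0 in all libraries.

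With LPS alone, 2 of the 20 tested targets were called higher (Slc7a11 and Nupr1) and 2 lower (Sesn2 and Vegfa), against 3.72% and 2.37% of all tested genes, and the median was -0.12, or 0.40 after rescaling. The heat map of Gdf15, the transcription factors and these targets shows, in TPM that were not rescaled, 3 shapes among the genes that were higher with Met + LPS: near the untreated level with LPS and above it with Met + LPS (Gdf15, Asns, Egr1, Phgdh), down with LPS and back up (Ddit3, Sesn2, Pck2), and up in both steps (Slc7a11).

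**Figure D2:**
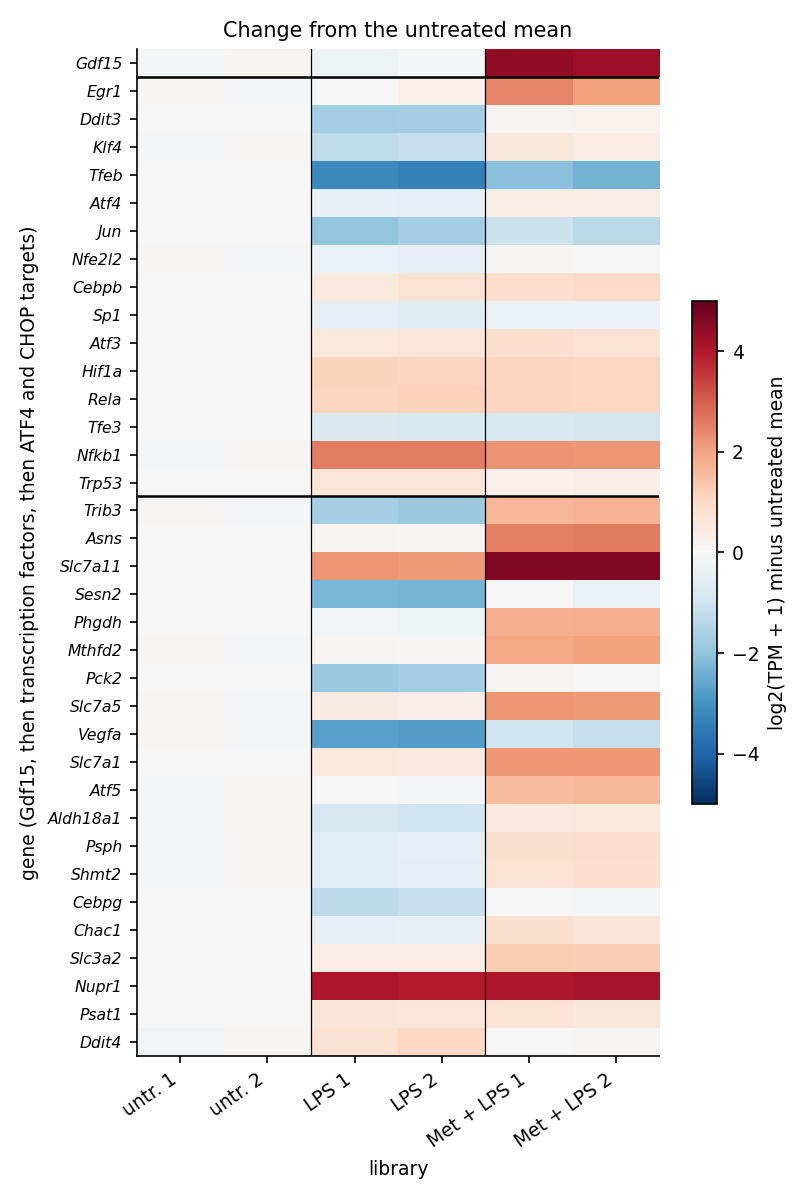
Heat map of log2(TPM + 1) minus the mean of the untreated libraries for Gdf15, the 15 transcription factors and the 20 tested ATF4 and CHOP targets (rows) in the 6 libraries (columns), on a color scale from -5 to 5; within each block genes are ordered by their difference between Met + LPS and LPS. Gdf15 is pale in the untreated and LPS libraries and dark red in both Met + LPS libraries.

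Some of these targets held in their promoters the ATF4 element that the windows of Gdf15 lacked. Of the 17 targets called higher with Met + LPS, 16 had a promoter window in the RefSeq set. The CARE core was held by 5 of these 16, compared with 4.51% of the 27018 genes in the set. Of all 20 tested targets, 19 had a window and 6 held the core, including Nupr1, which was not called. The list was made of known targets of ATF4 or CHOP, so that a share above that of all genes can follow from this choice. The stretches are printed here with the core in capitals, on the strand on which it reads TGATGNAA, so that they can be set beside the windows of Gdf15. They lie at chr6:7693213-7693244 (Asns), chr2:152344027-152344058 (Trib3), chr2:119351037-119351068 (Chac1), chr3:50443660-50443691 (Slc7a11) and chr14:55540151-55540182 (Pck2) in GRCm38.p6.

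Asns: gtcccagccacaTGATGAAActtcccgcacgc
Trib3: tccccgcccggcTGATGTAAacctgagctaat
Chac1: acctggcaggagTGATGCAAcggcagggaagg
Slc7a11: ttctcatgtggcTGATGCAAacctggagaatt
Pck2: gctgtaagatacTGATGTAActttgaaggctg

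The core lay 23 bases before the annotated start in Asns, 66 before it in Slc7a11 and 14 after it in Trib3. Slc7a11 held a second core at 47 bases before its start, on the other strand. With the third base free, 8 of the 16 held a match, the additional genes being Phgdh, Sesn2 and Vegfa, compared with 16.6% of all genes. Of the 19 tested targets with a window, 10 held this form, including Nupr1 and Psat1, which were not called. These matches describe the sequence and do not show binding.

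Targets of p53 moved less uniformly. Of 20 genes, 18 were tested. With Met + LPS, 5 rose and 0 fell by limma, beside 4.19% and 4.09% of all tested genes. Their median log2 fold change was 0.14. At an unadjusted p under 0.05, 3 were lower, beside 29.98% of all tested genes, and 0 were called lower by voom. Gadd45a was at 55.0 and 51.4 TPM in untreated, 4.24 and 4.66 in LPS and 74.8 and 77.6 in Met + LPS libraries. With LPS it fell by 3.31 ± 0.06, and it rose with Met + LPS by 3.82 ± 0.06 on the log2 scale (SE; limma, adjusted p = 4e-08 and 3.31e-06), and 19.1% of its exonic bases lie in another annotated gene. Plk2, a stress kinase, rose by 1.83 ± 0.05, Trp53inp1 by 1.18 ± 0.07, Bbc3 (PUMA) by 1.13 ± 0.05 and Pmaip1 (NOXA) by 0.91 ± 0.06 (SE). Of these 5, ATF4 or CHOP is also known to act on Gadd45a, Bbc3 and Pmaip1. The classical p53 targets Cdkn1a (p21) and Mdm2 were not called with Met + LPS, at -0.56 and 0.10. Cdkn1a was called higher with LPS alone, from 102 and 98.3 to 1813 and 1757 TPM. With LPS alone, 2 targets of p53 were called higher (Cdkn1a and Fas) and 3 lower (Sesn1, Trp53inp1 and Gadd45a), against 3.72% and 2.37% of all tested genes.

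A list of 14 targets of ATF6 or XBP1, the other branches of the unfolded protein response, holds mostly chaperones and folding enzymes of the endoplasmic reticulum. With Met + LPS, 0 of the 14 were called higher and 2 lower by limma, beside 4.19% and 4.09% of all tested genes, with a median log2 fold change of -0.31. At an unadjusted p under 0.05, 4 were higher, beside 24.9% of all tested genes, and 0 were called higher by voom. Pdia4 fell by 0.96 ± 0.04 and Sdf2l1 by 0.93 ± 0.04 on the log2 scale (SE; limma, adjusted p = 1.92e-05 and 2.02e-05). Hspa5, which encodes the chaperone BiP, was at 838 and 823 TPM with Met + LPS, below its LPS libraries. Calr, calreticulin, was at 944 and 952 TPM with LPS and 580 and 602 TPM with Met + LPS, a log2 fold change of -0.68 ± 0.04 (SE) that was just under the cut-off.

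Chaperones and proteases of mitochondria were higher in part. Of 10 tested genes, 5 rose and 0 fell with Met + LPS by limma, beside 4.19% and 4.09% of all tested genes. Their median log2 fold change was 0.58. At an unadjusted p under 0.05, 1 was lower, beside 29.98% of all tested genes, and 0 were called lower by voom. Hspa9, the mitochondrial HSP70, was at 256 and 251 TPM in untreated, 247 and 232 in LPS and 809 and 840 in Met + LPS libraries, and rose by 1.78 ± 0.04 (SE; limma, adjusted p = 4.43e-06). Lonp1, the matrix protease, rose by 1.14 ± 0.05, Hspd1 (HSP60) by 0.93 ± 0.03, Afg3l2 by 0.81 ± 0.04 and Dnaja3 by 0.78 ± 0.04 (SE). Hspe1, Clpp, Clpx, Yme1l1 and Spg7 were not called, with log2 fold changes from -0.16 to 0.37. In the comparison of LPS with untreated cells, 0 of these 10 genes were called in either direction by limma or voom, and 8 were lower at an unadjusted p under 0.05, beside 66.8% of all tested genes. Their median was -0.55, or -0.04 after rescaling.

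Of 12 targets of TFEB or TFE3, 4 rose and 0 fell with Met + LPS, beside 4.19% and 4.09% of all tested genes by limma. Their median log2 fold change was 0.42. At an unadjusted p under 0.05, 1 was lower, beside 29.98% of all tested genes, and 0 were called lower by voom. Fnip1 rose by 1.52 ± 0.06, Flcn by 1.44 ± 0.06 and Rragd by 1.01 ± 0.08 on the log2 scale (SE), and Fnip2 went from 50.8 and 47.4 TPM with LPS to 149 and 133 TPM with Met + LPS. These are genes of the folliculin and Rag GTPase complexes, which report amino-acid supply to mTORC1. Flcn and Fnip2 stayed below their untreated libraries with Met + LPS, also after rescaling. For Fnip1 and Rragd the order depended on the scaling, with rescaled means of 94.9 against 70.0 for Fnip1 and 42.8 against 43.1 for Rragd. The lysosomal genes of the list (Lamp1, Ctsd, Mcoln1, Atp6v1h and Gpnmb) were not called, with log2 fold changes from -0.10 to 0.41. Of 9 targets of NRF2, 4 rose and 0 fell by limma, beside 4.19% and 4.09% of all tested genes. At an unadjusted p under 0.05, 0 were lower, beside 29.98% of all tested genes, and 0 were called lower by voom. Gclm and Gclc, the subunits of the enzyme that limits glutathione synthesis, rose by 1.37 ± 0.09 and 0.78 ± 0.06, Srxn1 by 1.19 ± 0.07 and Prdx1 by 0.83 ± 0.06 (SE), whereas Hmox1 and Nqo1 were not called (0.33 and -0.01).

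**Figure D3:**
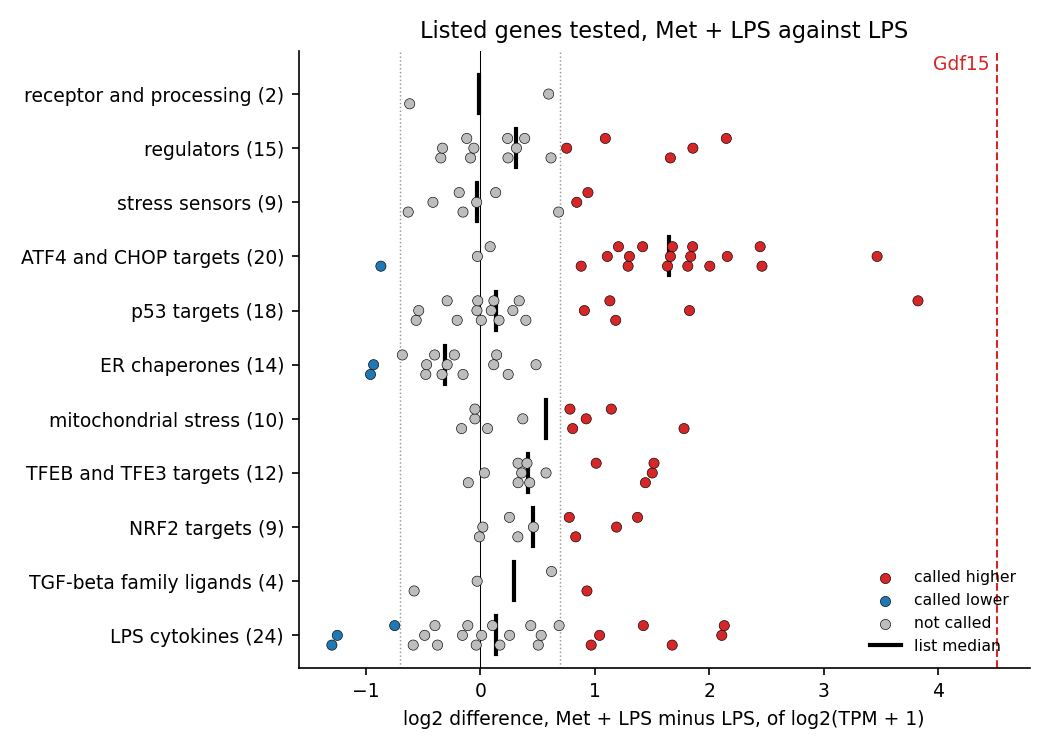
Log2 difference between Met + LPS and LPS of every tested gene of the 11 lists (points; the number tested is in parentheses), with list medians (black bars), the cut-offs of -0.7 and 0.7 (dotted) and Gdf15 (dashed red line, at 4.51). The ATF4 and CHOP targets have the highest list median, 1.65, and no listed gene reaches Gdf15.

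Gdf15 was also placed among other secreted ligands. Of 32 other ligands of the TGF-beta superfamily, 4 passed the filter on low values. In untreated and in LPS cells Gdf15 ranked after only Tgfb1 (198 and 200 TPM in untreated, 156 and 158 in LPS libraries) and Gdf3 (128 and 127, then 85.6 and 89.6). With Met + LPS it was the most abundant, with Tgfb1 next at 164 and 145 TPM. The share of Gdf15 in the summed TPM of the family was 10.4% in untreated and 77.9% in Met + LPS cells. Of the 4 tested relatives, 1 rose with Met + LPS, beside 4.19% of all tested genes. This was Inhba, the subunit of activin A, which was at 0.123 and 0.0655 TPM in untreated, 4.36 and 4.25 in LPS and 9.34 and 8.89 in Met + LPS libraries (log2 fold change with Met + LPS 0.93 ± 0.09, SE; limma, adjusted p = 0.000367). Tgfb1, Gdf3 and Bmp2 were not called, at -0.03, -0.58 and 0.62.

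The rank of Gdf15 among 25 cytokines and chemokines of the LPS response was lower with LPS alone and higher again with Met + LPS. Of the 24 that were tested, 22 rose with LPS and 0 fell by limma, beside 3.72% and 2.37% of all tested genes. At an unadjusted p under 0.05, 0 were lower, beside 66.8% of all tested genes, and 0 were called lower by voom. In untreated cells Ccl3 and Ccl4 alone were more abundant than Gdf15, in LPS cells 20 were, and in Met + LPS cells 10 were. The order with Met + LPS put Gdf15 between Cxcl1 (911 and 883 TPM) and Ifnb1 (738 and 686 TPM), and neither pair of libraries overlapped with the 853 and 770 TPM of Gdf15. With LPS its neighbors in the order were Cxcl3 (45.2 and 42.9 TPM) above and Csf2 (10.2 and 6.51 TPM) below. With Met + LPS, 6 of the 24 rose and 3 fell, beside 4.19% and 4.09% of all tested genes. The median log2 fold change of the 24 was 0.14. Lif rose by 2.13 ± 0.09, Ifnb1 by 2.11 ± 0.15, Il23a by 1.68 ± 0.09 and Cxcl2 by 1.42 ± 0.10 (SE), and Tnf and Il1rn by 1.04 and 0.97. Cxcl9 and Il10 fell by 1.30 and 1.25 on the log2 scale, and Il1b by 0.75 ± 0.14 (SE; limma, adjusted p = 0.00471), a call that was lost when any of the LPS or Met + LPS libraries was left out (log2 fold changes -0.81 to -0.69).

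**Figure D4:**
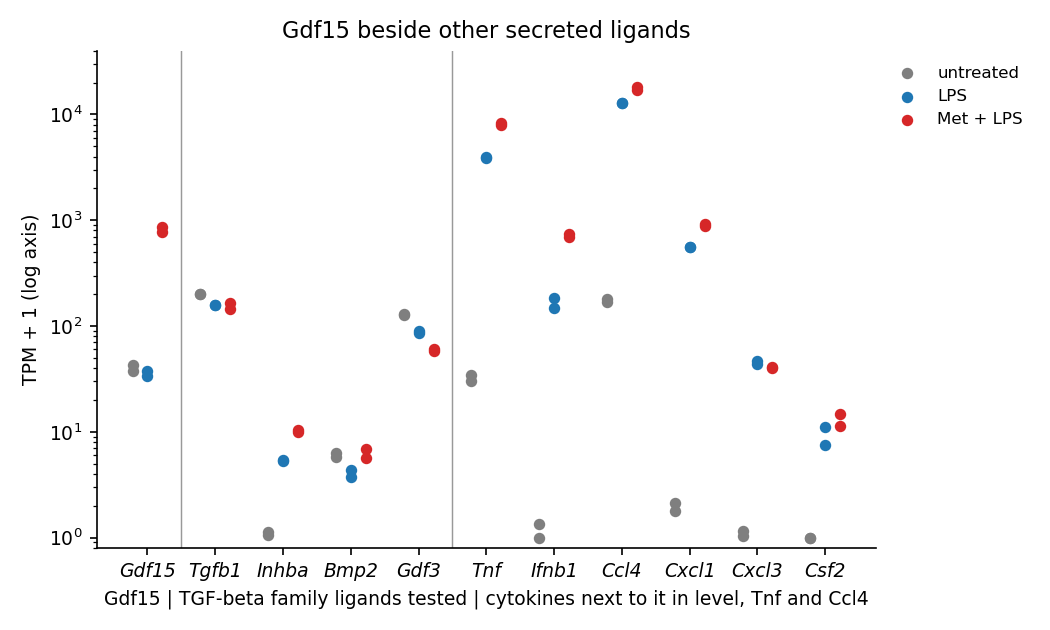
TPM + 1 on a log axis in each library for Gdf15, the 4 tested ligands of the TGF-beta family and 6 cytokines, colored by group. Gdf15 lies below Tgfb1 and Gdf3 in untreated and LPS libraries and above both with Met + LPS, where it is between Cxcl1 and Ifnb1.

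The genes next to Gdf15 on the chromosome did not share its pattern. Of 34 genes with a start within 250 kb of that of Gdf15, 18 were tested, and the others were below the filter on low values. Among the latter was Jund, listed at 0 in every library, with 52.6% of its exonic bases in another annotated gene. With Met + LPS, 1 of the 18 was called higher and 1 lower, beside 4.19% and 4.09% of all tested genes. Their median log2 fold change was 0.00. The nearest tested gene downstream, Lrrc25, starts 16.3 kb from Gdf15 and was at 203 and 206 TPM with LPS and 73.4 and 73.5 TPM with Met + LPS, a fall of 1.46 ± 0.03 on the log2 scale (SE; limma, adjusted p = 4.41e-06). The nearest tested gene upstream, Pgpep1, a peptidase gene 27.9 kb away, was at 12.4 and 12.1 TPM with LPS and 13.3 and 13.4 TPM with Met + LPS and was not called (0.11). Mast3, 173 kb upstream, was called higher at 0.75 ± 0.12 (SE), a call that was lost without either untreated library, either LPS library or Met + LPS replicate 1 (log2 fold changes 0.58 to 0.82). With LPS, 0 of the 18 were called higher and 2 lower (Mast3 and Ell), beside 3.72% and 2.37% of all tested genes. By voom, 0 were called higher and 4 lower. At an unadjusted p under 0.05, 1 was higher and 16 were lower, beside 18.0% and 66.8% of all tested genes. Their median was -0.72, beside -0.48 over all tested genes, which came to 0.00 after rescaling.

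**Figure D5:**
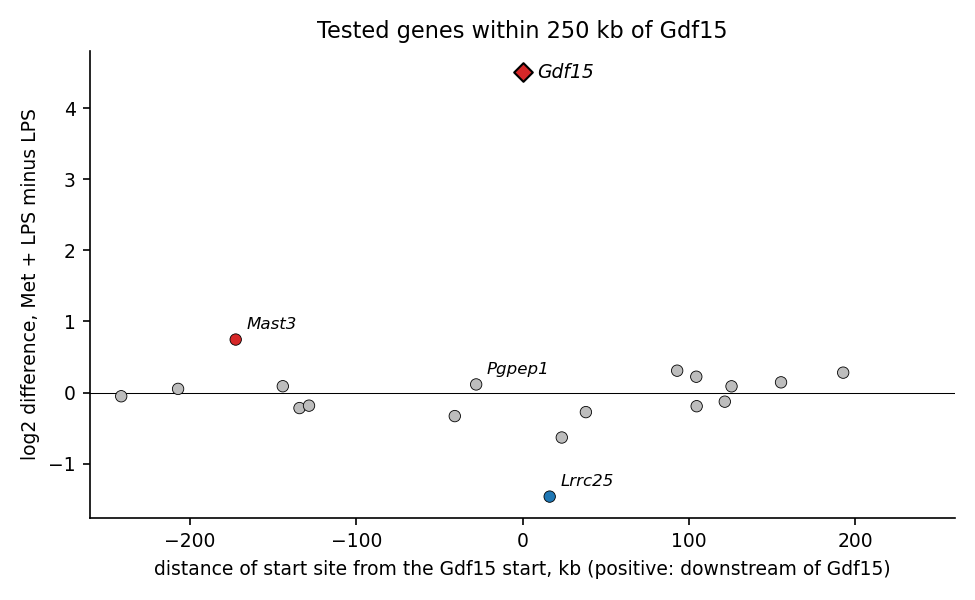
Log2 difference between Met + LPS and LPS of Gdf15 (diamond) and the 18 tested genes within 250 kb, against the distance of their start from that of Gdf15 in kb, in the direction of its transcription. Gdf15 is at 4.51, and its neighbors lie between -1.46 (Lrrc25) and 0.75 (Mast3).

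The genes most like Gdf15 in their profile were found by the root-mean-square difference over the 6 libraries of log2(TPM + 1) minus the mean of the untreated libraries. These were chosen by the same values, and are described without a test. The 10 nearest were Aqp9, Asns, Lif, Tnfsf18, Gm26917, Egr1, Gm44386, Fam110c, Slc7a5 and Areg, with differences of 0.76 (Aqp9) to 1.30 (Areg). Aqp9, a channel for water and glycerol, was at 0.381 and 0.371 TPM in untreated, 1.11 and 0.860 in LPS and 11.6 and 12.3 in Met + LPS libraries. It was thus far lower than Gdf15 in every group. The likeness is one of change from the untreated mean on the log2(TPM + 1) scale. By Pearson's r over the 6 libraries, Aqp9 was at position 69 (r = 0.980). Slc7a5, an amino-acid transporter, was at 12.5 and 11.7, 16.3 and 15.4, and 59.6 and 56.7 TPM. Fam110c was at 0.894 and 0.542, 0.383 and 0.311, and 7.24 and 6.18 TPM. Gm26917, a lincRNA, was at 66.1 and 70.1, 47.8 and 55.9, and 335 and 344 TPM.

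The 10 genes differed in the LPS libraries. The log2 differences between LPS and untreated cells were 1.68 for Lif, 1.46 for Tnfsf18, 1.36 for Gm44386, 1.35 for Areg, 0.53 for Aqp9 and 0.36 for Slc7a5, beside -0.17 for Gdf15. Areg, a ligand of the EGF receptor, was listed at 0 in both untreated libraries and was at 1.41 and 1.69 TPM with LPS and 5.01 and 5.86 TPM with Met + LPS. Gm44386 rests on 1 and 0 reads in untreated cells and 4 and 9 with LPS. Ranked by Pearson's r over the 6 libraries, which does not depend on the size of the change, 1 of the 10 nearest genes (Asns, r = 0.996) was again among the first 10.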

How the data were processed

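Per the labels, poly-A RNA of primary BMDMs was made into libraries with a TruSeq kit, in 3 groups of 2 libraries. The authors aligned single-end reads to GRCm38 with STAR 2.6.1d and counted them with featureCounts (Subread 1.6.3), according to the submitters' processing notes. The values were deposited by the authors as TPM for 54532 genes, unpooled; how counts became TPM is not given in the sources used here.

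TPM totals are equal between libraries by construction. TPM times the exon length (GENCODE, GRCm38; 54495 genes matched) was a whole multiple of a step per library for 96.1% to 96.3% of values above 0 (tolerance 0.02 reads), which gave 25457016 to 30762754 reads on genes per library. Intervals of reads are exact 95% Poisson intervals and cover counting error only, since reads carried no molecular identifiers.

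The 12755 genes that reached 1 TPM in 2 or more libraries were tested with limma 3.58.1 (R 4.3.3; lmFit and eBayes with a trend) on log2(TPM + 1), all 6 libraries in a common fit with 3 residual degrees of freedom, and Benjamini-Hochberg adjustment. Fold changes on this scale understate those of genes with few TPM. The cut-offs are those of the study's methods. Replicates of a group differed by more than counting error, with a chi-square per degree of freedom of 1.87 to 3.39.

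Gdf15 and the 11 lists of genes were chosen with earlier results of these data known. Genes are named by rule: from each list up to 6 with the largest changes among those called in each direction, every regulator, stress sensor and receptor, the 10 nearest profiles, and neighbors within 250 kb; a few others of the lists (such as Hspa5, Calr, Cdkn1a, Mdm2, Nupr1, Psat1, Hmox1 and Nqo1) were named after their values were seen. Promoter windows are those of RefSeq (GRCm38.p6), and exons of other genes count as overlap on either strand. As alternatives, the pseudocount was set to 0.1, the filter was dropped or raised to 5 TPM, libraries were scaled by median ratios, and fits were made with the compared groups only, with a replicate block, without the trend and at an adjusted p-value of 0.05. Further alternatives were limma voom on recovered reads (12750 genes), Pearson's r for profiles, and leaving out each library. Tables were made in Python 3.11.15 with pandas 2.3.3 and figures with matplotlib 3.10.9.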

Additional observations from a re-analysis of the deposited data

How the results depend on the processing

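The difference of Gdf15 between Met + LPS and LPS was 4.51 on the log2 scale and ranged from 4.43 to 4.59 when a library was left out; it was 4.55 with a pseudocount of 0.1, 4.53 with median-ratio scaling and 4.55 with voom. Its difference between LPS and untreated cells was -0.17 and -0.25 to -0.08 when a library was left out, and reversed to 0.35 with median-ratio scaling, a setting that by construction moves the median gene of that comparison to 0.00. The same setting moved the difference between Met + LPS and untreated cells from 4.34 to 4.87. The count of genes called in LPS vs. untreated, 776, became 1512 with a pseudocount of 0.1 and 1596 with voom; the cause was not tested. The count for Met + LPS vs. LPS, 1056, ranged from 903 to 1415 over all alternatives. Of the 10 genes most like Gdf15, 4 were again among the nearest with a pseudocount of 0.1, 1 by Pearson's r, and 6 to 9 when a library was left out.

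Of the genes named by rule, 63 were called in Met + LPS vs. LPS, of which 59 kept the call whichever library was left out (the others were Ddit4, Il1b, Mast3 and Gm44386), and all 41 called in LPS vs. untreated kept it. The sources do not say whether libraries with the same replicate number shared mice or cultures. Deviations of same-numbered libraries correlated at -0.00 to 0.03, which cannot show that they were unpaired. With the replicate block, 1044 and 777 genes were called in the 2 comparisons, with 55 and 39 calls among the lists. None of the 161 genes lost its call. With 2 libraries a group, Gdf15 has no check beyond these 6 libraries, and depth did not limit it.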
